A study of Mus musculus with 2 samples.

Results

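Solute carrier (SLC) genes encode membrane proteins that move amino acids, sugars, nucleosides, metals, ions and cofactors across the plasma membrane and the membranes of organelles. The genes described here were those whose symbol has the form Slc, number, a, number and that were chosen by their level, an FPKM of at least 1 in at least 1 of the 2 libraries. FPKM is the number of sequenced fragments of a gene, divided by transcript length and library size. Of 255 matching symbols with a value in either library, 146 met this level, among 9925 genes that met it in all. The pattern also catches 4 genes that encode no carrier, namely *Slc9a3r1*, *Slc9a3r2*, *Slc7a6os* and *Slc4a1ap*, so 142 of the 146 are carriers by name.

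OT-I transgenic mice on the C57BL/6 strain, 6-8 wk of age, gave CD8+ T cells of lymph nodes and spleen, which recognize the ovalbumin peptide SIINFEKL. Both cultures received the peptide (2.5 ng/mL) with IL-2 (10 U/mL) for 24 h and were transduced, with polybrene at 6 µg/mL, by the retroviral vector RVKM, which carries IRES-hCD2, either empty (control) or encoding Eomes, a T-box transcription factor. Cells with human CD2 on their surface were sorted 48 h later, plated at 40000 per well and given the same peptide and cytokine doses for 3 days. Retroviral Eomes is driven by the vector and not by its own locus, and both groups are cells activated in culture. RNA of 1 library per group was sequenced in bulk, where fewer cells of a type and less RNA per cell cannot be told apart. There is 1 library on each side, so every difference below is between 2 libraries, without a replicate check and without a p-value. The FPKM of *Eomes* itself was 2.47 without and 129.6 with the Eomes vector. The 5 T cell markers *Cd8a*, *Cd8b1*, *Cd3e*, *Cd3d* and *Cd3g* were between 99.1 and 264 in both libraries. All 5 were lower with Eomes, by log2 ratios from -0.24 for *Cd3e* to -0.88 for *Cd8a* (182 and 99.1). Of 14 markers of other cell types, 12 were below 1 in both libraries, among them *Cd4*, *Lyz2* and *Hbb-bs*, while the natural killer receptor gene *Klrb1c* was at 0.31 and 5.74 and *Epcam* was at 2.66 and 1.92. Whether *Klrb1c* marks other cells or the OT-I cells themselves was not tested. The deposited tables give no read numbers and the depth is unknown, so no counting interval is given for any value.

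Activated T cells depend on carriers. Leucine and other large neutral amino acids enter through the heterodimer of Slc7a5 and Slc3a2, glutamine through Slc1a5 and members of the Slc38 family, and glucose through Slc2a1 and Slc2a3. Lactate leaves through Slc16a3 and moves in both directions through Slc16a1, and the Slc25 family passes metabolites, nucleotides and cofactors across the inner mitochondrial membrane.

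None of the 146 genes was more than 1.5-fold higher in Eomes-overexpressing cells, and 9 (6.16%) were more than 1.5-fold lower. Of all 9925 genes at the same minimum level, 2.46% were higher by over 1.5-fold and 5.19% lower by that much, so the share of lower members was near that of genes in general. The median log2 ratio (Eomes over control, as in all ratios below) of the 146 genes was -0.044, beside -0.0037 for all genes at that level. A log2 ratio within 0.25 of 0, in either direction, was found for 102 of them (69.9%) and for 68.1% of all genes. In the order of the log2 ratio, 84 (57.5%) were below 0, beside 50.5% of all genes. Another 61 were above it, and *Slc25a14* had the same value, 4.37, in both libraries. After scaling both libraries to equal summed FPKM, 75 were below 0 and 71 above it. The same counts were found after subtracting the median of genes of like GC content. Summed over the 146 genes, FPKM was 4233 in the control library and 4201 with Eomes.

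**Figure D1:**
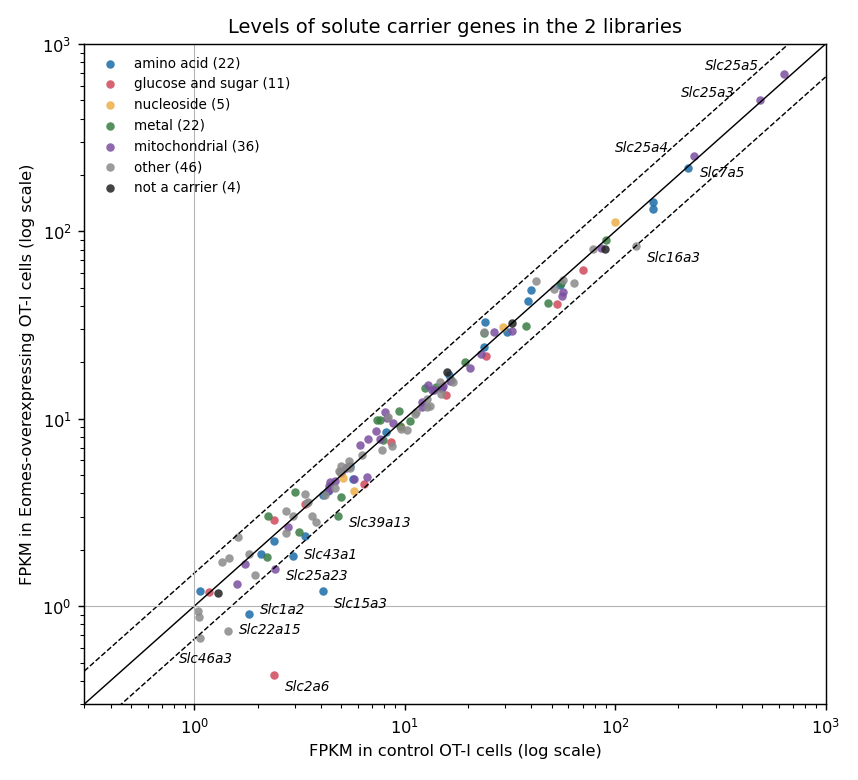
FPKM of the 146 genes in control (x axis) and Eomes-overexpressing OT-I cells (y axis), both on log scales, 1 point per gene and 1 library per group, coloured by class with the number of genes in brackets. The solid line marks equal values, the dashed lines 1.5-fold, and the grey lines an FPKM of 1. The 9 named genes under the lower dashed line are the ones more than 1.5-fold lower, and no gene lies over the upper dashed line.

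The 9 lower genes belonged to different classes. *Slc2a6*, a glucose transporter of intracellular membranes, had the largest difference (2.39 and 0.43, log2 ratio -2.47; 5.56-fold lower). *Slc15a3*, a lysosomal carrier of histidine and peptides, followed (4.09 and 1.2, log2 ratio -1.77; 3.41-fold lower). *Slc1a2*, a glutamate transporter best known from astrocytes, was at 1.82 and 0.91, log2 ratio -1.0. *Slc22a15*, of the organic ion carriers, stood at 1.45 and 0.74, log2 ratio -0.97. These 4 were all under an FPKM of 5 in both libraries, and 3 of them were under 1 with Eomes. Next came *Slc39a13*, a zinc transporter of vesicles and the Golgi (4.83 and 3.03, log2 ratio -0.67), and *Slc43a1*, a carrier of large neutral amino acids (2.96 and 1.86, log2 ratio -0.67). *Slc46a3*, a lysosomal carrier, was at 1.07 and 0.68, log2 ratio -0.65. *Slc25a23*, which exchanges ATP-Mg for phosphate in mitochondria, stood at 2.41 and 1.57, log2 ratio -0.62. The only lower gene of high level was *Slc16a3*, with FPKM 126 in control and 83.4 with Eomes, a ratio just past the threshold (1.51-fold lower, log2 ratio -0.59).

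Differences of this size were common among genes of low level. Among 2571 genes with a mean FPKM under 5, 13.1% were more than 1.5-fold lower and 6.34% higher, and the middle 95% of log2 ratios ran from -1.33 to 0.87. In this range 49 of the 146 genes lay, with 8 lower by more than 1.5-fold, but only *Slc2a6* and *Slc15a3* were outside the middle 95%. Among all genes with a mean of 5 to 20, 1.55% were more than 1.5-fold higher and 3.54% lower. From 20 to 100 the shares were 0.796% and 1.45%. Of 60 members with a mean of 5 to 20 and 29 with a mean of 20 to 100, none was past 1.5-fold in either direction. The only one of these outside the middle 95% of its range was *Slc38a2*, at 0.46 against a limit of 0.40. Its ratio was 0.35 after centring by GC content, a step not applied to the limit. At a mean of 100 or more there were 8 of the 146, while of 910 genes in all 0.989% were more than 1.5-fold lower, and *Slc16a3* lay below the limit of -0.45. These limits describe the spread of genes between the 2 libraries, not replicate error. At the threshold of level itself, *Slc46a1* (1.04 and 0.94) and *Slc26a11* (1.05 and 0.88) were just inside, and *Slc25a47* (0.60 and 0.98), *Slc2a9* (0.96 and 0.60) and *Slc38a9* (0.95 and 0.96) just outside. An FPKM of at least 1 in both libraries was reached by 140 genes. The other 6 reached it in control only (*Slc1a2*, *Slc22a15*, *Slc26a11*, *Slc2a6*, *Slc46a1* and *Slc46a3*), so the rule itself let them in through the library where they were higher. Without them 5 of 140 (3.57%) were lower by over 1.5-fold, beside 3.78% of all 9562 genes at an FPKM of at least 1 in both libraries.

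**Figure D2:**
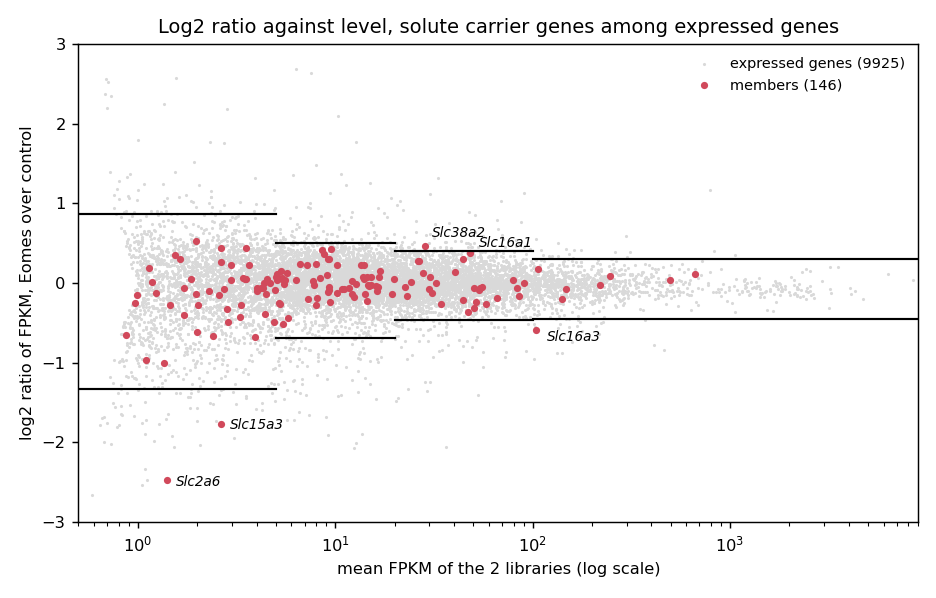
Log2 ratio (y axis) against the mean FPKM of both libraries (x axis, log scale) for 9925 genes (grey, 15 of them outside the plotted range) and the 146 solute carrier genes (red). Black lines bound the middle 95% of the log2 ratios of all genes with a mean FPKM under 5, from 5 to 20, from 20 to 100 and over 100. *Slc2a6*, *Slc15a3* and *Slc16a3* lie under these lines and *Slc38a2* over them.

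The classes differed little in their medians, which were -0.067 for 22 amino acid carriers, -0.18 for 11 glucose and sugar carriers, -0.082 for 5 nucleoside carriers, -0.025 for 22 metal carriers, -0.0015 for 36 mitochondrial carriers and -0.053 for 46 carriers of other substrates. The count of lower genes was 3, 1, 0, 1, 1 and 3, in that order, beside 5.19% of all genes. The share was 13.1% among all genes with a mean FPKM under 5, where 8 of these lower members lay. Of the lower members, *Slc1a2*, *Slc2a6*, *Slc22a15* and *Slc46a3* met the minimum level in control only. The largest sum of FPKM was that of the mitochondrial carriers (1871 in control and 1933 with Eomes), and the amino acid carriers came second (797 and 778). After centring by GC content the medians of the amino acid, nucleoside, metal and mitochondrial carriers were above 0 (0.011, 0.0085, 0.041 and 0.018). Those of the glucose and sugar carriers (-0.11) and of the carriers of other substrates (-0.028) stayed below it. No difference between classes was tested, since the 2 libraries give no replicates.

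**Figure D3:**
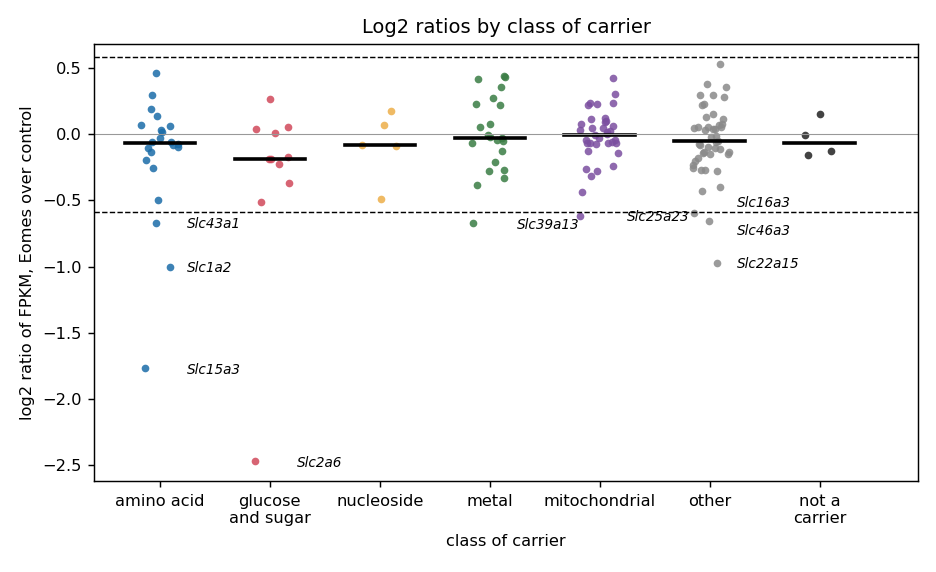
Log2 ratio of FPKM (y axis) of each of the 146 genes by class of carrier (x axis), with horizontal jitter within a class and a black bar at the median. Dashed lines mark 1.5-fold. The medians run from -0.18 for glucose and sugar carriers to -0.0015 for mitochondrial carriers, and the named points are the 9 genes more than 1.5-fold lower.

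Amino acid carriers held the highest levels among plasma membrane transporters. *Slc7a5*, on chromosome 8 of mm10 from 121881150 to 121907694, encodes the light chain of the leucine transporter and had FPKM 221 in control and 217 with Eomes (log2 ratio -0.027). Its heavy chain *Slc3a2*, on chromosome 19 from 8706882 to 8723369, was at 152 and 144, log2 ratio -0.072. Both chains of the transporter were thus close to equal in the 2 libraries. Of the other carriers of large neutral amino acids, *Slc16a10*, for aromatic amino acids, was at 16.3 and 17.1, log2 ratio 0.073. *Slc43a2* stood at 3.35 and 2.38, log2 ratio -0.49 and *Slc43a1*, as given above, was past 1.5-fold. Among these 5 genes 4 had a ratio below 0, and the sign is not firm for the heterodimer, whose chains were at 0.062 and 0.012 after centring by GC content.

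*Slc1a5*, the sodium-dependent exchanger of glutamine and small neutral amino acids, lies on chromosome 7 from 16781340 to 16798274. Its FPKM was 151 and 132 in control and Eomes-overexpressing cells, respectively (log2 ratio -0.20), and its relative *Slc1a4* was at 5.68 and 4.76, log2 ratio -0.25. Another pair of sodium-coupled glutamine carriers, *Slc38a2* and *Slc38a1*, had ratios above 0. *Slc38a2*, on chromosome 15 from 96687392 to 96699730, was at 23.9 and 32.98, log2 ratio 0.46, or 0.35 after centring by GC content. *Slc38a1* was at 39.8 and 48.9, log2 ratio 0.30. Within this group of 4 glutamine and small neutral amino acid carriers, 2 were thus above and 2 below 0, and none was past 1.5-fold. The 3 carriers of cationic amino acids such as arginine were all slightly above 0. *Slc7a1* had 38.5 and 42.4, log2 ratio 0.14, *Slc7a6* 23.9 and 24.2, log2 ratio 0.016 and *Slc7a3* 5.49 and 5.62, log2 ratio 0.034.

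Lysosomal and proton-coupled carriers were of lower level. *Slc15a4*, which takes up histidine and peptide fragments and takes part in signalling by endolysosomal Toll-like receptors, was at 8.16 and 8.54, log2 ratio 0.066. Its close relative *Slc15a3*, was 3.41-fold lower, as given above, so the 2 lysosomal histidine carriers were unequal. *Slc38a7*, a lysosomal glutamine carrier, was at 4.32 and 4.14, log2 ratio -0.061. *Slc36a1* stood at 4.08 and 3.91, log2 ratio -0.061 and *Slc36a4* at 2.38 and 2.22, log2 ratio -0.10. The taurine transporter *Slc6a6* had 30.7 and 29.1, log2 ratio -0.080 and the glycine transporter *Slc6a9* 2.07 and 1.89, log2 ratio -0.13. *Slc38a10* (54.9 and 51.5, log2 ratio -0.092) and *Slc38a6* (1.06 and 1.21, log2 ratio 0.19) complete the class. The cystine transporter *Slc7a11* did not belong to the members, with FPKM 0.23 in control and 0.09 with Eomes. Gene lists, here and below, are to be read beside all 9925 genes, of which 2.46% were more than 1.5-fold higher and 5.19% lower. Of 27 expressed genes of amino acid sensing by the kinase complex mTORC1, none was past 1.5-fold in either direction. Their median was -0.023, and *Sesn2*, a leucine sensor, was at 34.3 and 31.5.

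Glucose transporters of the plasma membrane were both lower in the Eomes library, by less than 1.5-fold. *Slc2a1*, on chromosome 4 from 119108711 to 119137983, had FPKM 70.3 in control and 61.9 in Eomes-overexpressing cells (log2 ratio -0.18). *Slc2a3*, on chromosome 6 from 122727809 to 122801640, was at 52.8 and 40.9, log2 ratio -0.37. The intracellular transporters were lower still, *Slc2a8* at 6.43 and 4.51, log2 ratio -0.51 and *Slc2a6* as given above. All 4 Slc2 genes of the set were thus lower. For *Slc2a6* this direction was fixed by the rule, since it met the minimum level in control only. After centring by GC content the ratios of *Slc2a1* and *Slc2a3* were -0.11 and -0.43. Among the remaining sugar carriers the glucose-6-phosphate carrier *Slc37a4* was at 15.7 and 13.4, log2 ratio -0.23. Its relatives *Slc37a1* (8.57 and 7.53, log2 ratio -0.19), *Slc37a2* (3.35 and 3.49, log2 ratio 0.059) and *Slc37a3* (4.99 and 5.12, log2 ratio 0.037) lay on both sides of 0. The sugar transporter *Slc50a1* had 24.4 and 21.7, log2 ratio -0.17, *Slc45a4* 2.39 and 2.88, log2 ratio 0.27 and the myo-inositol transporter *Slc5a3* 1.18 and 1.19, log2 ratio 0.012. In all 7 of the 11 sugar carriers, *Slc2a6* among them, were below 0 and 4 above it, beside 50.5% of all genes below 0. The sum of FPKM over the class was 193 in control and 163 with Eomes. Of 10 expressed genes on a list of glucose uptake and its control, 1 was past 1.5-fold, *Ldhb*, a lactate dehydrogenase subunit (12.7 and 5.50, log2 ratio -1.21). Hexokinase 2 (*Hk2*, 48.5 and 50.8) was about level, and *Hk1* was at 56.97 and 45.99.

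Monocarboxylate carriers, which move lactate and related acids together with protons, showed opposite ratios for the 2 main members. *Slc16a3* encodes MCT4 and lies on chromosome 11 from 120948480 to 120960868. As given above, it was the single abundant carrier past 1.5-fold, at 126 and 83.4. *Slc16a1*, which encodes MCT1, lies on chromosome 3 from 104638668 to 104658462 and was at 41.9 and 54.6, log2 ratio 0.38. *Slc16a3* thus had 3.0 times the FPKM of *Slc16a1* in control and 1.53 times with Eomes. Their chaperone *Bsg* was at 406 and 321 (log2 ratio -0.34). *Slc16a6* had 23.9 and 29.1, log2 ratio 0.28 and *Slc16a13* 8.73 and 7.19, log2 ratio -0.28. The ratio of *Slc16a3* was -0.56 after scaling each library to its summed FPKM and -0.49 after centring by GC content, both under 1.5-fold, and that of *Slc16a1* was 0.23 after the latter. Neither gene shares a stretch of 50 bases with another annotated gene.

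**Figure D4:**
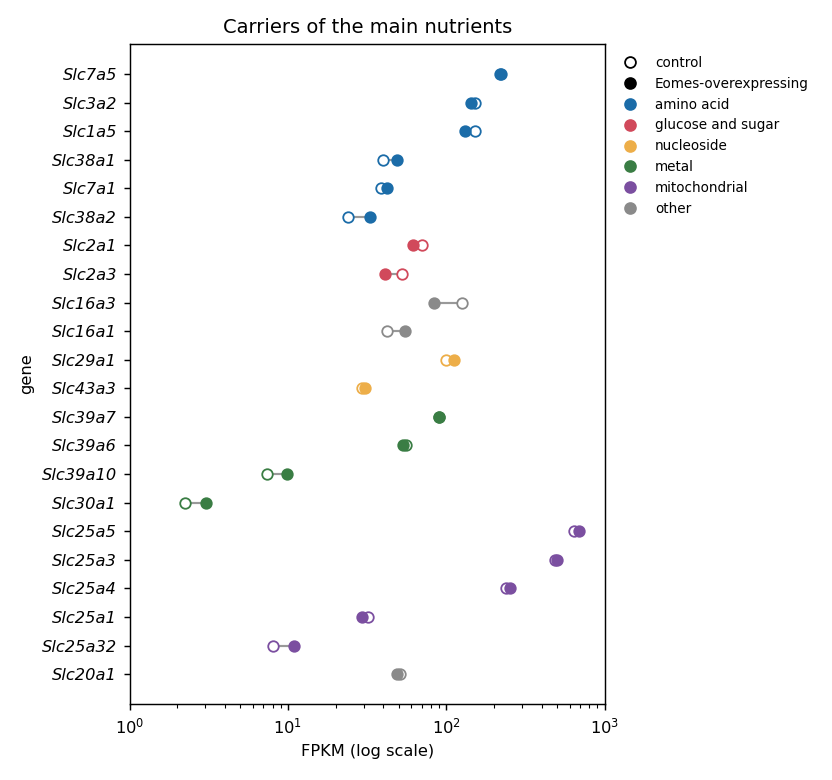
FPKM (x axis, log scale) of 22 carriers of amino acids, glucose, monocarboxylates, nucleosides, zinc, mitochondrial metabolites and phosphate (y axis), with control as open and Eomes-overexpressing cells as filled circles, 1 library each. The widest gap among the abundant genes is that of *Slc16a3* (126 and 83.4), while *Slc7a5* and *Slc39a7* have nearly coinciding circles.

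Promoter sequences of these 2 lactate carriers are printed because their ratios went in opposite directions, together with those of *Slc2a6*, the gene with the largest difference, and of the zinc exporter *Slc30a1*. The windows run from 250 bases before to 50 after the RefSeq start in GRCm38.p6 (mm10), 5′ to 3′ on the strand of the gene. Capitals mark matches, on either strand, to the letters of the hypoxia response core (ACGTG), the E-box (CACGTG, which contains the former), the metal response core (TGCGCNC or TGCACNC), the T-box site (AGGTGTGA) and the amino acid response element (TGATGNAA). The lactate carrier windows lie at chr11:120948817-120949116 (plus strand) and chr3:104638414-104638713 (plus strand), that of *Slc2a6* at chr2:27027949-27028248 (minus strand) and that of *Slc30a1* at chr1:191906531-191906830 (plus strand).
Slc16a3: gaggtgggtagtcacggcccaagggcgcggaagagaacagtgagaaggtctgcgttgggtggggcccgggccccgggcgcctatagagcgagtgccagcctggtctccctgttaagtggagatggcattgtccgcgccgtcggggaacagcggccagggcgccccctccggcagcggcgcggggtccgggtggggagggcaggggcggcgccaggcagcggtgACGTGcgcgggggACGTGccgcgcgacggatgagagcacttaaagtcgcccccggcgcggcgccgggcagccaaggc
Slc16a1: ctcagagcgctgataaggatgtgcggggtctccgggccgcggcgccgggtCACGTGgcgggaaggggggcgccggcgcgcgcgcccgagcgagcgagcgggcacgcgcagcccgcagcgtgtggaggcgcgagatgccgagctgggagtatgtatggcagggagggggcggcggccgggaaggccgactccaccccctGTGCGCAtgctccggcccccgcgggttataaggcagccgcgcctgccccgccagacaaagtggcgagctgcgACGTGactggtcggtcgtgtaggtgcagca
Slc2a6: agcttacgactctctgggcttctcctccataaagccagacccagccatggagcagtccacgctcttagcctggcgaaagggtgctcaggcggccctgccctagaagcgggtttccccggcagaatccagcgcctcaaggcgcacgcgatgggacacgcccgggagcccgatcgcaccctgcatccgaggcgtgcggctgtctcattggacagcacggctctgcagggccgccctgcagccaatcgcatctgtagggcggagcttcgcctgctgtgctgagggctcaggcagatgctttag
Slc30a1: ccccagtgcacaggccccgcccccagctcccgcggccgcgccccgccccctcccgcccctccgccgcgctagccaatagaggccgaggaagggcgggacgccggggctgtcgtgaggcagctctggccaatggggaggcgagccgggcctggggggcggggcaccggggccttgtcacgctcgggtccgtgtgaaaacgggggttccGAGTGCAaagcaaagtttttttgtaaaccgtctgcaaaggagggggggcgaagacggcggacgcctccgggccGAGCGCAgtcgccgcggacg

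The *Slc16a3* window holds ACGTG at bases 224 to 228 and 237 to 241, counted from its 5′ end. The *Slc16a1* window holds the E-box at bases 51 to 56 and a further ACGTG at 271 to 275, besides 1 metal response core. In the *Slc30a1* window the metal response core occurs at bases 208 to 214 and 281 to 287, in both cases on the opposite strand. The *Slc2a6* window holds none of these letters. RefSeq windows were matched for 109 of the 146 genes, with 147 windows in all. The hypoxia response core was found in 27.9% of these windows and in 19.6% of all 32851 promoter windows, the E-box in 16.3% and 7.15%, and the metal response core in 34% and 25.7%. The T-box site was found in 1.36% and 1.28%, in *Slc6a9* and *Slc39a11* among the carriers, neither of which was past 1.5-fold. The amino acid response element was in 2.04% and 3.97%. Windows of members differ from all windows in base composition, which was not adjusted for, and a match of letters is a description of the sequence only. The 32851 windows also include genes under the minimum level, and shares over expressed genes alone were not computed.

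Nucleoside carriers were led by *Slc29a1*, the equilibrative transporter ENT1, on chromosome 17 from 45585200 to 45599606. Its FPKM was 99.5 in the control library and 112 with Eomes (log2 ratio 0.18). The purine nucleobase carrier *Slc43a3* was at 29.4 and 30.9, log2 ratio 0.072. Both of these abundant carriers were slightly above 0. *Slc28a2*, which takes up purine nucleosides with sodium, had 9.62 and 9.06, log2 ratio -0.087, and 39.8% of its 50-base stretches also occur in the annotated gene *Gm14085*. *Slc29a2* stood at 5.09 and 4.81, log2 ratio -0.082 and the lysosomal *Slc29a3* at 5.74 and 4.1, log2 ratio -0.49. None of the 5 was past 1.5-fold. The 13 expressed enzymes of nucleoside salvage were likewise within 1.5-fold, with a median of -0.016, including thymidine kinase *Tk1* (132 and 137) and deoxycytidine kinase *Dck* (30.8 and 30.99).

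Metal carriers comprised 11 Slc39 genes, which bring zinc and other metals into the cytosol, 6 Slc30 genes, which move zinc out of it, and 5 carriers of iron, copper, heme or magnesium. The most abundant was *Slc39a7*, which releases zinc from the endoplasmic reticulum (90.1 and 89.8, log2 ratio -0.0047), but 83.9% of its 50-base stretches also occur in the readthrough gene *Gm20427*. The plasma membrane importer *Slc39a6* was at 55.3 and 52.9, log2 ratio -0.063. Its partner *Slc39a10* had 7.35 and 9.83, log2 ratio 0.42. Of this pair *Slc39a6* was near level and *Slc39a10* above 0, within 1.5-fold. *Slc39a1* (37.5 and 31.2, log2 ratio -0.27) and *Slc39a3* (5.0 and 3.83, log2 ratio -0.38) were below 0, *Slc39a8*, a carrier of zinc and manganese (7.64 and 9.81, log2 ratio 0.36), was above it, and *Slc39a14*, also a carrier of iron, was at 19.4 and 20.2, log2 ratio 0.055. *Slc39a4* (16.7 and 16.1, log2 ratio -0.051), *Slc39a9* (9.39 and 10.99, log2 ratio 0.23) and *Slc39a11* (9.47 and 9.18, log2 ratio -0.045) lay between -0.051 and 0.23. In total 7 of the 11 importers had a ratio below 0, with *Slc39a13* the only one past 1.5-fold.

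Among the zinc exporters *Slc30a1*, the exporter of the plasma membrane, was at 2.25 and 3.04, log2 ratio 0.43. *Slc30a7*, of the secretory pathway, had 3.0 and 4.07, log2 ratio 0.44, and *Slc30a5*, which works in the same compartment, 23.8 and 28.8, log2 ratio 0.27. These 3 were above 0, while *Slc30a4* (7.89 and 7.74, log2 ratio -0.028), *Slc30a6* (10.6 and 9.7, log2 ratio -0.13) and *Slc30a9* (14.8 and 14.6, log2 ratio -0.023) were below it, *Slc30a4* and *Slc30a9* by less than the shift of 0.032 that scaling to equal summed FPKM brings. The median of the exporters was 0.13 and that of the importers -0.045, and these became -0.023 and 0.049 after centring by GC content. The order of the 2 families was thus reversed by that step. The iron importer *Slc11a2* was at 14.1 and 14.8, log2 ratio 0.076 and the copper importer *Slc31a1* at 12.4 and 14.5, log2 ratio 0.22. The heme carrier *Slc48a1* had 47.7 and 41.3, log2 ratio -0.21, the magnesium carrier *Slc41a1* 3.14 and 2.5, log2 ratio -0.33 and *Slc31a2* 2.21 and 1.82, log2 ratio -0.28. The iron exporter gene *Slc40a1* had no listed value in either library. Of 15 expressed genes of metal handling none was past 1.5-fold, and the zinc-binding metallothioneins *Mt1* (463 and 543) and *Mt2* (267 and 312) had log2 ratios of 0.23 and 0.23.

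Mitochondrial carriers were the class with the highest levels. The ADP/ATP exchangers *Slc25a5* and *Slc25a4* and the phosphate carrier *Slc25a3*, which supply ATP synthase and export its product, held 72.9% of the summed FPKM of the 36 genes in control and 74.7% with Eomes. *Slc25a5*, on the X chromosome from 36795651 to 36798807, was at 637 and 692, log2 ratio 0.12. *Slc25a3* had 489 and 500.1, log2 ratio 0.034 and *Slc25a4* 238 and 253, log2 ratio 0.090. All 3 were slightly above 0, although *Slc25a3* was at -0.11 after centring by GC content. For *Slc25a5*, 46.6% of the 50-base stretches also occur in pseudogenes and other annotated genes, so its level depends on how such reads were assigned. The calcium-regulated exchangers of ATP-Mg and phosphate were less abundant, *Slc25a24* at 7.63 and 7.77, log2 ratio 0.026 and *Slc25a25* at 5.74 and 4.79, log2 ratio -0.26. The third of them, *Slc25a23*, was the only mitochondrial carrier past 1.5-fold, and was at -0.53 and thus under it after centring by GC content.

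Carriers that link the mitochondrion to the cytosol through di- and tricarboxylates and amino acids were within 0.25 of 0 on the log2 scale. The citrate carrier *Slc25a1* had 32.2 and 29.5, log2 ratio -0.13 and the oxoglutarate carrier *Slc25a11* 56.2 and 47.6, log2 ratio -0.24. The dicarboxylate carrier *Slc25a10* stood at 15.1 and 14.7, log2 ratio -0.040. Of the aspartate-glutamate carriers of the malate-aspartate shuttle *Slc25a12* was at 26.6 and 28.9, log2 ratio 0.12 and *Slc25a13* at 12.9 and 15.1, log2 ratio 0.23. The glutamate carrier *Slc25a22* was at 15.2 and 14.97, log2 ratio -0.025. Of these 6 genes, 4 were below and 2 above 0, and *Slc25a10* and *Slc25a22* turned positive (0.051 and 0.075) after centring by GC content. The acylcarnitine carrier *Slc25a20*, which feeds fatty acid oxidation, was also level (23.03 and 22.2, log2 ratio -0.054).

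Cofactor and nucleotide carriers included the highest positive ratio of the mitochondrial class. *Slc25a32*, a carrier of folate and FAD, was at 8.09 and 10.9, log2 ratio 0.43, and this became 0.22 after centring by GC content. *Slc25a26*, which imports S-adenosylmethionine, was at 6.64 and 4.91, log2 ratio -0.44, the lowest ratio of the class after *Slc25a23*. *Slc25a17*, found in peroxisomes, had 56.1 and 45.1, log2 ratio -0.31. Pyrimidine nucleotide carriers were *Slc25a33* (16.4 and 15.9, log2 ratio -0.043) and *Slc25a36* (4.43 and 4.58, log2 ratio 0.048). The NAD+ carrier *Slc25a51* (13.4 and 14.2, log2 ratio 0.078), *Slc25a42*, which carries coenzyme A (2.8 and 2.66, log2 ratio -0.074), and *Slc25a16* (6.12 and 7.22, log2 ratio 0.24) also belong to this group of 9 genes, of which 4 were above and 5 below 0.

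The iron importers of mitochondria were *Slc25a37* (8.23 and 10.2, log2 ratio 0.30) and *Slc25a28* (12.1 and 12.3, log2 ratio 0.020), and the glutathione carriers *Slc25a39* (85.2 and 81.6, log2 ratio -0.063) and *Slc25a40* (5.24 and 5.47, log2 ratio 0.062). Among carriers of amino acids, *Slc25a38*, which imports glycine for heme synthesis, was at 13.7 and 14.2, log2 ratio 0.050, and *Slc25a44*, for branched-chain amino acids, at 12.02 and 11.5, log2 ratio -0.065. The ornithine carrier *Slc25a15* had 6.68 and 7.79, log2 ratio 0.22 and *Slc25a29*, for basic amino acids, 1.6 and 1.32, log2 ratio -0.28. No gene of these groups was past 1.5-fold. The outer membrane protein *Slc25a46* was at 7.32 and 8.65, log2 ratio 0.24, and *Slc25a14*, *Slc25a30*, *Slc25a35*, *Slc25a45* and *Slc25a53* had log2 ratios from -0.068 to 0.10. Other transport proteins of the mitochondrial membranes gave 1 gene past 1.5-fold of 15, *Mcub*, which encodes an inhibitory subunit of the calcium uniporter (6.11 and 3.63, log2 ratio -0.75). *Ucp2*, an Slc25 protein under another symbol, was at 524 and 491.

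Carriers of other substrates numbered 46. Phosphate enters through *Slc20a1* (51.2 and 49.2, log2 ratio -0.060) and *Slc20a2* (5.3 and 5.51, log2 ratio 0.056), both near level. The choline transporter-like gene *Slc44a2* had 63.5 and 52.7, log2 ratio -0.27 and *Slc44a1* 1.94 and 1.47, log2 ratio -0.40. The reduced folate carrier *Slc19a1* was at 56.6 and 54.8, log2 ratio -0.047 and the thiamine carrier *Slc19a2* at 14.9 and 13.5, log2 ratio -0.14. The riboflavin carriers *Slc52a2* (13.2 and 11.7, log2 ratio -0.18) and *Slc52a3* (4.68 and 4.27, log2 ratio -0.13), the ascorbate carrier *Slc23a2* (5.52 and 5.47, log2 ratio -0.013) and the multivitamin carrier *Slc5a6* (4.91 and 5.17, log2 ratio 0.074) were all within 0.25 of 0. *Slc33a1*, which brings acetyl-CoA into the endoplasmic reticulum, was at 14.8 and 15.6, log2 ratio 0.080. Of 11 vitamin, choline and acetyl-CoA carriers, 9 were below 0, beside 50.5% of all genes. Among the 9, *Slc46a1* and *Slc46a3* met the minimum level in control only, so their direction was fixed by the rule. The median of the 11 was -0.14 and became -0.046 after centring by GC content.

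Ion carriers comprised 16 genes with a median log2 ratio of 0.044, and none was past 1.5-fold. The anion exchanger *Slc4a2* had 16.9 and 15.7, log2 ratio -0.10. *Slc12a2*, which brings in sodium, potassium and chloride, was at 4.86 and 5.27, log2 ratio 0.12, and the potassium-chloride carrier *Slc12a4* at 12.8 and 12.7, log2 ratio -0.017. These 3 carriers were nearly level. The lowest ratio of the ion carriers was that of *Slc26a10* (3.79 and 2.81, log2 ratio -0.43). Further ion carriers (*Slc4a7*, *Slc4a11*, *Slc9a5*, *Slc9a8*, *Slc12a7*, *Slc12a9*, *Slc26a2*, *Slc26a6* and *Slc26a11*) had log2 ratios between -0.27 and 0.30.

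Nucleotide sugar carriers of the Golgi were above 0 in 4 of 5 cases, and *Slc35a1* turned negative (-0.073) after centring by GC content. *Slc35a4* was the most abundant at 78.5 and 80.7, log2 ratio 0.039. The carriers of CMP-sialic acid (*Slc35a1*, 6.24 and 6.39, log2 ratio 0.034), UDP-galactose (*Slc35a2*, 11.2 and 10.6, log2 ratio -0.078) and UDP-N-acetylglucosamine (*Slc35a3*, 8.34 and 10.3, log2 ratio 0.30) were within 1.5-fold, as was *Slc35a5* (1.35 and 1.73, log2 ratio 0.36). The ratio of *Slc35a3* became 0.040 after centring by GC content. The vesicular nucleotide carrier *Slc17a9* had 10.2 and 8.69, log2 ratio -0.23, the carnitine carrier *Slc22a5* 4.17 and 3.9, log2 ratio -0.097 and the lysosomal sialic acid carrier *Slc17a5* 1.82 and 1.89, log2 ratio 0.054. Fatty acid and bile acid carrier families were represented by *Slc27a4* (7.79 and 6.78, log2 ratio -0.20), *Slc27a1* (2.72 and 2.46, log2 ratio -0.14), *Slc10a3* (9.59 and 8.86, log2 ratio -0.11) and *Slc10a7* (5.45 and 5.96, log2 ratio 0.13), none past 1.5-fold. The 4 genes that encode no carrier had log2 ratios from -0.16 to 0.16, with the scaffold gene *Slc9a3r1* the most abundant (89.9 and 80.5). Among 13 expressed carriers of SLC families that go by other symbols, 1 was past 1.5-fold, *Slco3a1*, an organic anion transporter (8.61 and 4.17, log2 ratio -1.05).

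The log2 ratio of the 146 genes moved with GC content, taken from each gene's longest transcript. Over these genes, which are not independent replicates and share the same 2 libraries, Spearman's rho was -0.505 and Pearson's r -0.393, beside -0.427 and -0.291 over 9835 expressed genes with an annotated transcript. In the third of them with the lowest GC content (48 genes, 38.8% to 47.9%) the median log2 ratio was 0.079 and 35 genes were above 0. In the third with the highest GC content (48 genes, 54.2% to 61.6%) it was -0.12 and 39 genes were below 0. When the median of genes of like GC content was subtracted, the median of the 146 genes was -0.0025 and 7 (4.80%) were lower by over 1.5-fold, with none higher, beside 4.89% lower and 1.96% higher of 9835 genes after the same step. *Slc2a6* (-2.37), *Slc15a3* (-1.67), *Slc1a2* (-1.08), *Slc22a15* (-1.03), *Slc43a1* (-0.61) and *Slc46a3* (-0.62) remained past the threshold after that step, *Slc44a1* was added (-0.59), and *Slc16a3*, *Slc25a23* and *Slc39a13* were no longer past it. Whether base composition of the libraries or of the transcripts has a part in the differences was not tested.

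**Figure D5:**
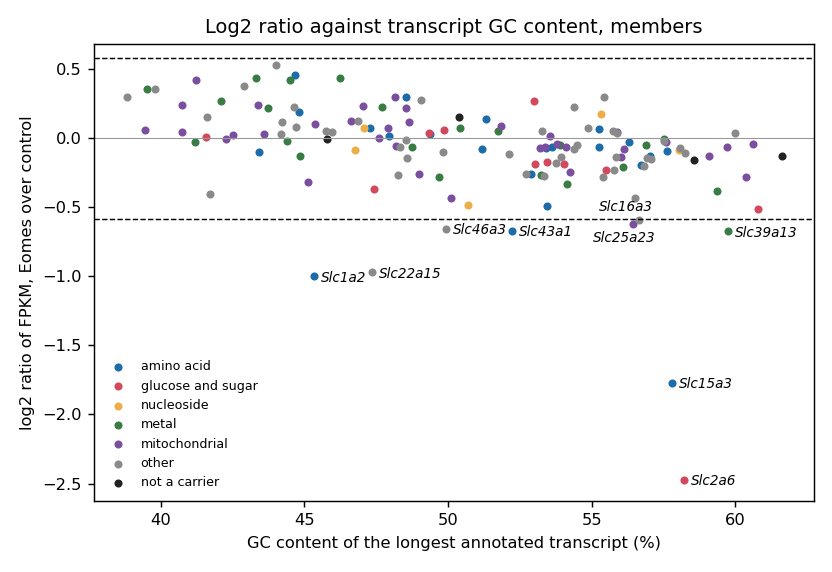
Log2 ratio (y axis) of the 146 genes against GC content of each gene's longest transcript in percent (x axis), coloured by class, with dashed lines at 1.5-fold. Points drift from above 0 at low GC content to below 0 at high GC content, and *Slc2a6* and *Slc15a3* lie far under the others at 58.2% and 57.8%.

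The 109 matching symbols under an FPKM of 1 in both libraries were not counted as members. Of these 32 were higher by over 1.5-fold and 33 lower by that much, beside 23.1% higher and 32.7% lower among all 4807 genes under that level, with 17 unlisted in control and 13 unlisted in Eomes-overexpressing cells. Examples are *Slc24a5* (0.21 and 0.71), *Slc12a8* (0.51 and 0.14) and *Slc13a3* (0.39 and 0.06). Exons of 47 members overlap exons of another annotated gene, in most cases on the other strand, such as *Psmc3* for *Slc39a13*, *Tmem132a* for *Slc15a3* and *Gm17168* for *Slc25a23*. The methods do not say that reads were counted by strand, so reads in such overlaps cannot be assigned to 1 gene with certainty. *Slc2a6*, *Slc16a3*, *Slc43a1*, *Slc22a15* and *Slc46a3* have no such overlap in the annotation.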

How the data were processed

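RNA of 2 bulk libraries of mouse OT-I CD8+ T cells, 1 control and 1 Eomes-overexpressing, was sequenced. The deposited tables hold 1 FPKM value per gene symbol, which the authors computed with RSEM after filtering reads (SOAPnuke) and aligning them with HISAT (HISAT2 in the submitters' processing notes) and Bowtie2 to mm10. The methods call the unit RPKM, and tool versions and strandedness are not given in the sources used here. Read numbers are not in these tables, so no count test was run and depth is unknown.

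Symbols turned into dates (20 in control and 19 in the other table) were left out. Log2 ratios are Eomes over control, with values raised to at least 0.01 FPKM. A gene was called higher or lower beyond 1.5-fold, at an FPKM of at least 1 in either library. With 1 library per group there is no test. The members and lists were chosen with earlier results of these data known, and the smaller role groups after values were seen. Classes follow the SLC family number. The rule for named genes took the 3 most abundant members of each class, members past 1.5-fold with an FPKM of at least 5, and a set of well-known carriers. Values of the other members, the lower ones under an FPKM of 5 included, were added after they were seen, to account for the set. Some members are counted in the totals but not reported here by name.

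GC content came from the longest transcript in GENCODE vM21, for 99.09% of expressed genes and all 146 members. The 50-base sharing compared that transcript of each member with the transcripts of other genes. Positions came from the gene records and overlaps from the exons of all transcripts in that annotation, and promoters from RefSeq. Alternatives were pseudocounts of 0.1 and 1, other minimum levels, a 2-fold threshold, scaling to equal sums, to the trimmed mean or to the median, and centring by GC content in 20 bins. Python 3.11.15, numpy 2.4.6, pandas 2.3.3, scipy 1.17.1 and matplotlib 3.10.9 were used. The fold calls were tried on simulated data, with changes much larger than 1.5-fold and an assumed depth. Centring by GC content, promoter matching and 50-base sharing were not tried in that way.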

Additional observations from a re-analysis of the deposited data

How the results depend on the processing

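None of the 146 genes was more than 1.5-fold higher under the pseudocounts, scalings, GC centring, 2-fold threshold or stricter minimum levels tried. Without a minimum level 32 of the 255 matching symbols were, beside 9.20% of all genes. The count of lower genes was 9 as reported. It was 3 of 146 (2.1%) with a pseudocount of 1, beside 2.87% of all genes. With a minimum FPKM of 5 in either library it was 1 of 100 (1%), beside 2.83% of all genes. With a minimum of 1 in both it was 5 of 140 (3.57%), beside 3.78%. At a 2-fold threshold it was 2 of 146 (1.37%), beside 1.76%, and without a minimum 42 of 255 (16.5%), beside 14.2%. The share over all genes moved with these settings too. After centring by GC content the count was 7 and the median log2 ratio of the 146 genes went from -0.044 to -0.0025. The cause was not tested. Among 276 values of 46 named genes, 258 kept their sign and their side of 1.5-fold, 10 kept the sign but were no longer past 1.5-fold, and 8 changed sign. The 8 belong to 6 genes near 0, with a size of at most 0.072 before and 0.11 after, 5 of them under GC centring (*Slc25a3* at -0.11, *Slc25a33*, *Slc39a7*, *Slc3a2* and *Slc7a5*) and 3 under scaling to equal sums (*Slc39a7*, *Slc7a5* and *Slc7a6os*). The 10 include *Slc16a3* at -0.56 after scaling to equal sums and -0.49 after GC centring. Members outside these 46 genes are not in this count, and some of them changed sign with a larger size after GC centring. Examples are *Slc25a40* (0.062 to -0.20), *Slc5a3* (0.012 to -0.18) and *Slc25a24* (0.026 to -0.16). Leaving out a replicate was not possible with 1 library per group. No paired analysis was possible because each group has 1 library. The depth is unknown, so counting error cannot be set beside any value.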
